A study of Homo sapiens with 40 samples.

Results

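Topologically associating domains are stretches of chromosome whose parts contact each other more often than they contact the sequence outside, and the positions where they begin and end are their boundaries. Of the 7011 different start and end positions in the domain list of control cells, 1901 were also a domain start or end in SETDB1 knockout cells, within 20 kb, and had no CTCF peak of either genotype within 20 kb. These 1901 positions are the shared boundaries without CTCF described here, and they were chosen by the deposited domain positions and CTCF peak positions of both genotypes. A further 4723 control boundaries were shared between genotypes and did have a CTCF peak within 20 kb, and they serve as the comparison. The remaining 387 control boundaries had no counterpart in the knockout list, and 536 boundaries of the knockout list had none in control. All positions are on hg19, in bp, and lie on the 20 kb grid of the domain lists.

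CTCF is a zinc finger protein that binds DNA in a directional manner and halts the loop-extruding cohesin ring, and many domain boundaries weaken when either protein is removed. Boundaries without CTCF are known to form at active promoters and at the borders between the A compartment, which is gene-rich and active, and the B compartment, which is largely silent. H3K9me3 marks constitutive heterochromatin, H3K27me3 marks Polycomb-repressed chromatin, H3K27ac marks active enhancers and promoters, and H3K4me3 marks promoters. SETDB1 is a histone methyltransferase that deposits H3K9me3, among other places at silenced transposable elements.

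The study compared A549, an established human lung adenocarcinoma line, as control cells and as cells whose SETDB1 gene was disrupted with CRISPR/Cas9. Both groups are otherwise described alike, with no drug treatment or time course, and the labels do not say whether the knockout is 1 clone or what the control cells received. RNA-seq had 3 libraries per genotype, Hi-C had 2, and ChIP-seq of CTCF and of each of 4 histone marks had 2, with 1 deposited peak list and 1 domain list per genotype. The labels do not tell whether libraries came from separate cultures, so p-values measure the spread between these libraries only.

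RNA totals ran from 18065062 to 48364919 counts per library. SETDB1, the disrupted gene, was at 37.5, 39.6 and 38.7 CPM (counts scaled to the library total) in control and at 23.4, 21.2 and 21.1 CPM in the knockout, a log2 change of -0.82 (SE 0.060, adjusted p = 1.7e-12, edgeR quasi-likelihood test). The groups did not overlap, and SETDB1 RNA was still present in the knockout libraries. The epithelial keratin KRT8 was at 2271 CPM in control and at 6594 CPM in the knockout, while the leukocyte and T cell markers PTPRC and CD3E and the fibroblast markers COL1A2 and DCN were at or near 0. Of the other markers chosen for an epithelial lung line, KRT18, KRT19, EPCAM and CDH1 also rose. AKR1B10 fell from 4845 to 2642 CPM, AKR1C1 from 626 to 215 CPM and NQO1 from 1627 to 1475 CPM. COL1A1 (fibroblasts) was at 3.10 and 3.83 CPM, and CDH5 (endothelium) rose from 0.289 to 4.53 CPM (log2 3.95, edgeR adjusted p = 1.5e-14). The endothelial marker VWF did not rise with it, at 0.0275 CPM in control and 0.0285 CPM in the knockout, and PECAM1 had no value. The part of these marker changes in the results was not tested.

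The absence of CTCF follows from the rule and is a description only. The median distance from a shared boundary without CTCF to the nearest CTCF peak of either list was 36.9 kb, with quartiles at 25.9 and 69.0 kb and a highest value of 979 kb. More than 50 kb separated 687 of the boundaries (36.1%) from any CTCF peak, more than 100 kb separated 301 (15.8%), and more than 200 kb separated 96. The nearest control peak was a median of 66.0 kb away and the nearest knockout peak 39.3 kb, beside CTCF lists of 23903 peaks in control and 34474 in the knockout. The members closest to the limit lay 20033, 20037, 20068, 20074 and 20077 bp from a peak, and the boundaries just beyond it, which were counted as having CTCF, lay 19994, 19956, 19951, 19942 and 19929 bp away. Members and non-members next to the limit thus differed in distance by far less than the 20 kb grid.

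The positions were less sharply reproduced between the domain lists than boundaries with CTCF. The same 20 kb position was a boundary in the knockout for 1477 of the 1901 (77.7%), and the other 424 (22.3%) were 20 kb off, whereas 84.5% of shared boundaries with CTCF kept the same position. Adjoining domains met at 1176 of the boundaries without CTCF (61.9%), while 368 were only a start and 357 only an end, next to stretches assigned to no domain. With CTCF, 80.8% were such meeting points. The control domains that touch a boundary without CTCF had a median length of 320 kb (quartiles 200 and 540 kb, 3077 domain sides), against 280 kb at boundaries with CTCF. These values come from the lists that chose the boundaries and were not tested.

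Boundaries without CTCF were unevenly spread over the chromosomes. Their share of the shared boundaries was lowest on chromosomes 19 (11.2%), 17 (15.4%) and 20 (15.7%) and highest on chromosomes X (126 of 254, 49.6%), 13 (48.0%), 4 (45.3%) and 6 (42.6%). The 6 chromosomes with fewer than 5 control CTCF peaks per Mb, which are 4, 6, 13, 18, 21 and X, held 646 members among 1443 shared boundaries (44.8%, 95% Wilson interval 42.2 to 47.3). The other 17 chromosomes held 1255 among 5181 (24.2%, 23.1 to 25.4), with a range from 11.2% to 32.8%.

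The CTCF lists themselves were sparse on those 6 chromosomes. They held 2.19 control and 5.17 knockout CTCF peaks per Mb, against 9.75 and 13.4 on the other 17. The other control lists were sparser there too, with 10.2 against 21.1 H3K27ac peaks, 14.2 against 20.2 H3K4me3 peaks, 26.6 against 31.0 H3K27me3 peaks and 23.9 against 37.3 H3K9me3 peaks per Mb. Over the 23 chromosomes, the share without CTCF fell with the density of control CTCF peaks (Spearman's rho -0.837, a description over points that share the same lists) and of control H3K27ac peaks (rho -0.848). Membership rests on listed peaks alone, and the part of peak density in it was not tested. Results are therefore also given without these 6 chromosomes where their value bears on the result.

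**Figure D1:**
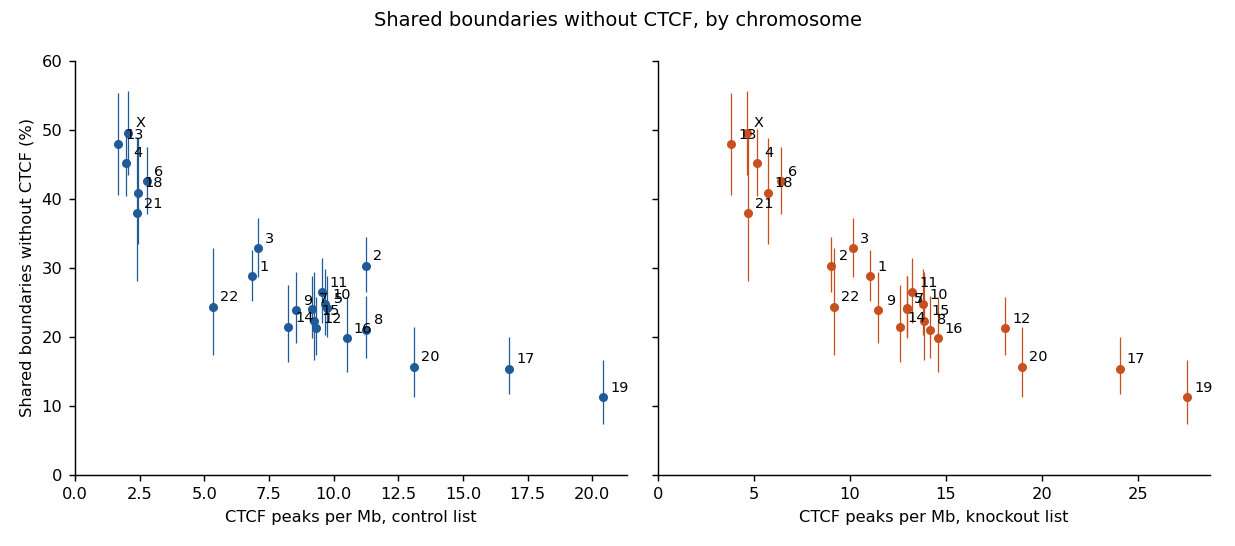
Share of shared boundaries without CTCF (vertical axis, percent, bars are 95% Wilson intervals) against the density of CTCF peaks per Mb in the control list (left) and the knockout list (right), 1 point per chromosome. Chromosomes X, 13, 4 and 6 sit at the upper left, with few CTCF peaks and 42.6% to 49.6% of shared boundaries without CTCF, and chromosome 19 lies lowest at 11.2%.

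Promoter and enhancer marks were found at most boundaries without CTCF, yet less often than at boundaries with CTCF. An H3K4me3 peak lay within 20 kb of 1104 of the 1901 boundaries in control (58.1%) and of 1206 in the knockout (63.4%). With CTCF the shares were 76.6% and 78.8%, so that the differences were -18.5 percentage points (95% Newcombe interval -21.0 to -16.0) in control and -15.3 points (-17.8 to -12.9) in the knockout. The share was lower without CTCF on 23 of 23 chromosomes in both genotypes. Each genotype has 1 peak list per mark, so the intervals cover counting error over boundaries only, and boundaries are not replicates of a genotype.

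H3K27ac was also less frequent without CTCF. Peaks lay within 20 kb of 973 boundaries without CTCF in control (51.2%) and of 1058 in the knockout (55.7%), against 63.3% and 65.4% with CTCF. The differences were -12.1 points (-14.8 to -9.49) and -9.75 points (-12.4 to -7.14), and the share was lower without CTCF on 21 of 23 chromosomes in control and on 16 in the knockout. Without the 6 chromosomes poor in CTCF peaks they were -7.85 and -5.35 points for H3K27ac and -14.7 and -12.3 points for H3K4me3.

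H3K9me3, the mark that SETDB1 writes, was near most boundaries without CTCF in control and near few in the knockout. The share with a peak within 20 kb was 1126 of 1901 in control (59.2%, 57.0 to 61.4) and 381 in the knockout (20.04%, 18.3 to 21.9), a drop that was also present at boundaries with CTCF, from 62.9% to 17.6%. Mean coverage at members in control was 8.07% in the nearest 10 kb and 8.37% at 190 to 200 kb. In the knockout it was 5.41% and 11.6%, so coverage was not higher next to the boundary in either genotype. The control list had 102976 peaks of median width 2303 bp covering 344 Mb, and the knockout list 53949 peaks of median width 4423 bp covering 623 Mb. Peaks in the knockout were thus fewer and wider, with a widest peak of 589 kb against 246 kb. How calling was set for each genotype is not given in the sources used here, and its part in the drop was not tested.

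How H3K9me3 changed differed between compartments. Compartment classes are taken from the Hi-C score of the 100 kb bins on both sides of a boundary, with A for positive and B for negative scores in control. Of the 1656 members with scores on both sides in all 4 libraries, 1024 were A on both sides, 300 were B on both sides and 332 were borders, with A on one side and B on the other. The sign fits the marks, since 66.2% of A but 17.0% of B members had a control H3K27ac peak.

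At A members the share with H3K9me3 went from 57.5% in control to 6.84% in the knockout, and the mean share of the 40 kb window covered went from 7.28% to 0.863%. At B members the share was 63.7% and 56.0%, while coverage of the window went up from 8.87% to 22.7%. B boundaries with CTCF went from 11.9% to 18.2% covered. Without the 6 chromosomes poor in CTCF peaks B members went from 11.4% to 18.0% and B boundaries with CTCF from 13.0% to 19.2%, so the larger rise at members was not found there. Borders had the highest share in control, 67.8%, and lay between A and B in the knockout, at 27.7%.

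Of the 775 boundaries without CTCF that had no H3K9me3 peak in control, 102 had one in the knockout (13.2%), against 5.93% with CTCF, a difference of 7.23 points (4.72 to 9.98). In the B class the figures were 58 of 109 (53.2%) and 63 of 175 (36%), a difference of 17.2 points (5.35 to 28.5). In the A class they were 1.61% and 1.23%. Without the 6 chromosomes poor in CTCF peaks neither difference held, at 2.23 points over all classes (-0.247 to 5.17) and 1.64 points in B (-12.8 to 17.2), so the larger gain rests on those chromosomes. Of the 1126 with a control peak, 279 kept one (24.8%), as did 24.5% with CTCF, and that difference of 0.30 points had an interval of -2.60 to 3.31. The boundaries that kept a peak and had scores were 110 in B, 76 at borders and 63 in A.

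Of the 102 boundaries that gained the mark, 81 had compartment scores, with 58 in B (71.6%), 16 at borders and 7 in A. Within 50 kb on each side their H3K9me3 coverage was 2.1% in control and 37.3% in the knockout. These boundaries were picked by their H3K9me3 peaks, so a rise follows from the choice and its size is a description only. Their share with H3K27me3 went from 64.7% to 48.0%, and their median flank score from -0.445 to -0.633.

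H3K27me3 was near 807 boundaries without CTCF in control (42.5%) and 742 in the knockout (39.0%), while with CTCF it was near 45.4% and 47.0%. The difference was -2.90 points (-5.53 to -0.26) in control and -7.97 points (-10.6 to -5.34) in the knockout. The gap was widest among B members in the knockout, at 56.7% against 72.0% with CTCF (-15.4 points). Of the members with a control H3K27me3 peak, 81.2% still had one in the knockout, against 88.9% with CTCF (-7.72 points, -10.8 to -4.82).

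**Figure D2:**
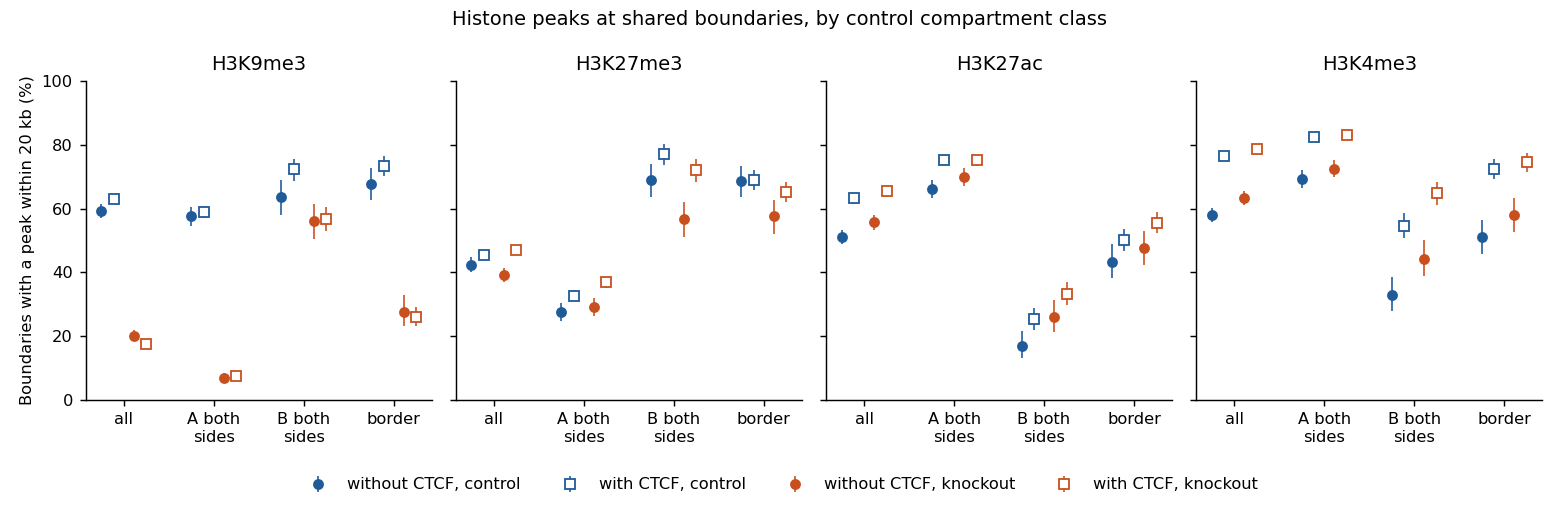
Percent of shared boundaries with a peak within 20 kb, for 4 histone marks, over all boundaries and by control compartment class (filled circles are boundaries without CTCF, open squares boundaries with CTCF, blue control and orange knockout, bars 95% Wilson intervals). H3K4me3 is lower without CTCF in every class, and H3K9me3 in the knockout remains at 56.0% in B but 6.84% in A.

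Taking the marks in combination, boundaries without CTCF had repressive marks alone more often than those with CTCF. A repressive mark (H3K9me3 or H3K27me3) and no active one (H3K27ac or H3K4me3) was found at 544 boundaries without CTCF in control (28.6%) and at 375 in the knockout (19.7%). These shares exceeded those with CTCF, 15.9% and 11.3%, by 12.7 points (10.5 to 15.0) and 8.44 points (6.48 to 10.5), and by 9.94 and 5.26 points without the 6 chromosomes poor in CTCF peaks. Repressive marks were not more frequent in control, with differences of -3.65 points for H3K9me3 and -2.90 points for H3K27me3. Any active mark was less frequent, by -17.6 points (-20.1 to -15.2). Transcription at the boundaries was not analysed. Members with active marks alone went from 423 (22.3%) to 818 (43.0%), while those with both kinds went from 778 (40.9%) to 480. Both changes were also present with CTCF. The difference for active marks alone was -2.92 points in control and -1.75 points in the knockout. For both kinds it was -14.7 and -12.6 points.

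No peak of any of the 4 marks in either genotype lay within 20 kb of 93 boundaries without CTCF (4.89%), against 1.97% with CTCF, a difference of 2.92 points (1.94 to 4.05). Of these, 68 had compartment scores, and 51 were A on both sides, 6 B and 11 borders. At these positions neither CTCF nor any of the measured marks was listed.

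The marks also varied with the distance to CTCF. Of the 1214 boundaries 20 to 50 kb from a CTCF peak, 59.9% had control H3K4me3 and 53.5% had H3K27ac. Of the 301 more than 100 kb away, 48.8% and 39.9% did. The share in B went from 16.0% to 25.3% and the share at borders from 18.9% to 24.5% between these 2 sets. Distance to CTCF is part of the rule, so this is a description.

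Members with H3K4me3 in both genotypes (1057) and in neither (648) also differed in compartment. The first were 73.6% A, 9.28% B and 17.1% borders, the second 48.0% A, 28.4% B and 23.6% borders. H3K27ac was near 81.1% of the first and 12.04% of the second in control, and H3K9me3 in the knockout was near 9.84% and 34.4%. The median absolute step of the compartment score was 0.217 and 0.301 in control.

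The boundaries with the most active chromatin were A on both sides. The one with the most H3K27ac and H3K4me3 was at chromosome 12, 104720000, 32.2 kb from CTCF, where H3K27ac covered 38.1 of 40 kb in control and 39.1 kb in the knockout and H3K4me3 covered 39.0 and 38.4 kb. Others among the 5 highest were chromosome 21, 16420000, and chromosome 4, 95680000, which were 183 and 337 kb from any CTCF peak. These were A on both sides in both genotypes. Genes at these positions were not analysed here.

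Compartment borders were about as common without CTCF as with it. Opposite signs on the 2 sides were found at 20.7% and 20.4% of the 1656 scored boundaries in the control libraries and at 21.4% and 20.9% in the knockout libraries. With CTCF the shares were 19.3%, 19.2%, 20.3% and 19.9%. From the genotype means, the difference was 1.26 points in control (-0.94 to 3.55) and 0.90 points in the knockout (-1.34 to 3.23), both intervals including 0. B on both sides was more frequent without CTCF, at 18.1% against 14.3% in control (3.84 points, 1.76 to 6.01), and by 2.48 points (-0.0087 to 5.14) without the 6 chromosomes poor in CTCF peaks.

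The step in score was larger without CTCF in each of the 4 libraries. Its median absolute size was 0.267 and 0.252 in control and 0.263 and 0.253 in the knockout, against 0.227, 0.222, 0.226 and 0.223 with CTCF. Without the 6 chromosomes poor in CTCF peaks the medians were still higher in each library, but the difference of the control means fell from 0.0391 to 0.0205. The difference between the classes was not tested.

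**Figure D3:**
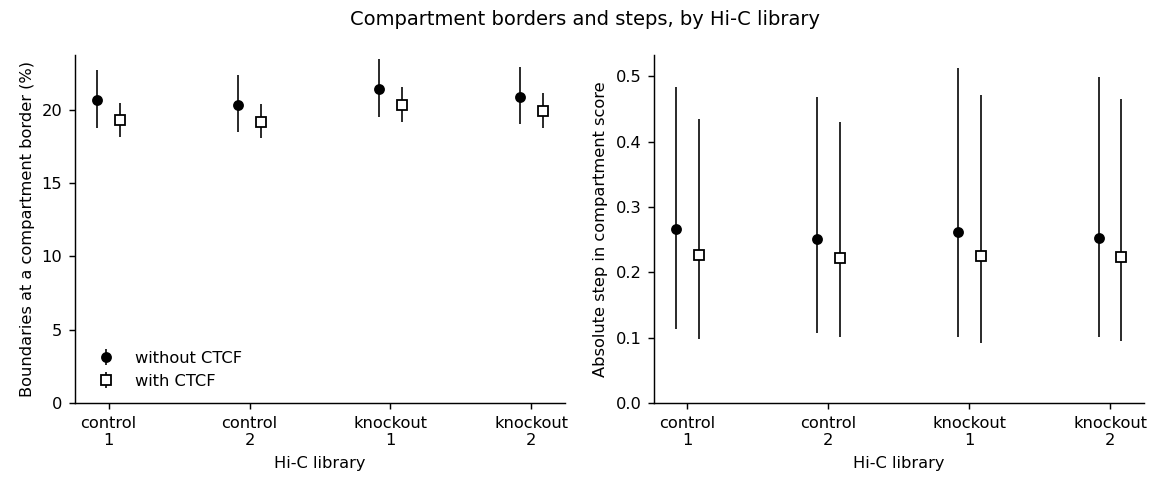
Percent of shared boundaries at a compartment border (left, bars are 95% Wilson intervals) and absolute step in compartment score (right, median with quartiles) in each of the 4 Hi-C libraries, with filled circles for boundaries without CTCF and open squares for boundaries with CTCF. The border share lies between 19.2% and 21.4% in all libraries and both classes, and the median step is higher without CTCF in each library.

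The sharpest compartment steps at boundaries without CTCF were on chromosomes 21, 14 and 11. At chromosome 21, 18980000, 94.9 kb from CTCF, the right flank minus the left was -1.38 and -1.48 in the control libraries and -1.35 and -1.26 in the knockout libraries, with no call (limma, adjusted p = 0.221). The neighbouring positions 18740000 and 18760000, read from the same bins, had a step of 1.37 and 1.44 in control and 1.10 and 1.02 in the knockout (change -0.345, SE 0.0637, adjusted p = 0.00386). These 3 boundaries enclose one A stretch within B, and its edges were present in both genotypes. All 3 read their A side from the same 100 kb bin, whose score was 1.16 in control and 0.556 in the knockout. At 18980000 the mean of both flanks fell from 0.445 to -0.097 (limma, adjusted p = 4.7e-06). At chromosome 11, 48160000, the step of -1.37 and -1.20 was -1.66 and -1.68 in the knockout (change -0.388, adjusted p = 0.0036).

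The knockout changed the compartment step at a share of boundaries without CTCF near the background. The step changed at 428 of 1656 (25.8%), beside 23.1% of all 6434 scored control boundaries (limma, adjusted p under 0.05). It grew in size at 250 (15.1%, background 14.3%) and shrank at 178 (10.7%, background 8.80%). Against boundaries with CTCF the share that shrank was higher by 3.26 points (1.64 to 5.01), and the share that grew differed by 0.61 points (-1.35 to 2.68). Neighbouring boundaries read from the same bins count as separate calls in these shares and intervals, and in those of the level. Without the 6 chromosomes poor in CTCF peaks the shrinking difference was 2.40 points.

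The level of the score around a boundary, the mean of both flanks, was called changed more often. The level was also more alike between replicates, with correlations of 0.994 in control and 0.997 in the knockout, against 0.959 and 0.978 for the step. The part of this precision in the count was not tested. The level changed at 1107 boundaries without CTCF (66.8%, background 63.2%), with 368 higher and thus more A-like (22.2%, background 19.6%) and 739 lower and thus more B-like (44.6%, background 43.6%). Compared with CTCF, the share that rose was higher by 3.68 points (1.42 to 6.03) and the share that fell by 2.17 points (-0.62 to 4.98). The share changed in either direction was higher by 5.85 points (3.14 to 8.50) over all chromosomes, and by 2.97 points (-0.37 to 6.24) without the 6 chromosomes poor in CTCF peaks, where the call is lost. The median change was -0.060 without CTCF and -0.052 with CTCF, and -0.033 and -0.044 without those chromosomes, the opposite order.

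H3K9me3 was listed at fewer boundaries in the knockout whichever way the level moved, but the length it covered rose where the level fell. At the 368 members whose level rose, the median went from 0.263 to 0.501, H3K9me3 from 63.6% to 13.6% of boundaries, and H3K4me3 from 57.1% to 71.2%. At the 739 whose level fell, the median went from 0.358 to 0.0263, H3K9me3 from 62.0% to 28.4%, and H3K4me3 from 55.6% to 58.3%. At the 549 with no call, H3K9me3 went from 57.0% to 12.8%. Mean H3K9me3 coverage within 50 kb went from 7.83% to 9.44% at members whose level fell. It went from 9.95% to 2.95% where the level rose and from 7.06% to 3.60% with no call. At boundaries with CTCF whose level fell, coverage went from 9.61% to 7.86%. H3K9me3 peaks were thus left at more of the boundaries that fell than of either other set, and no test was made over these sets.

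**Figure D4:**
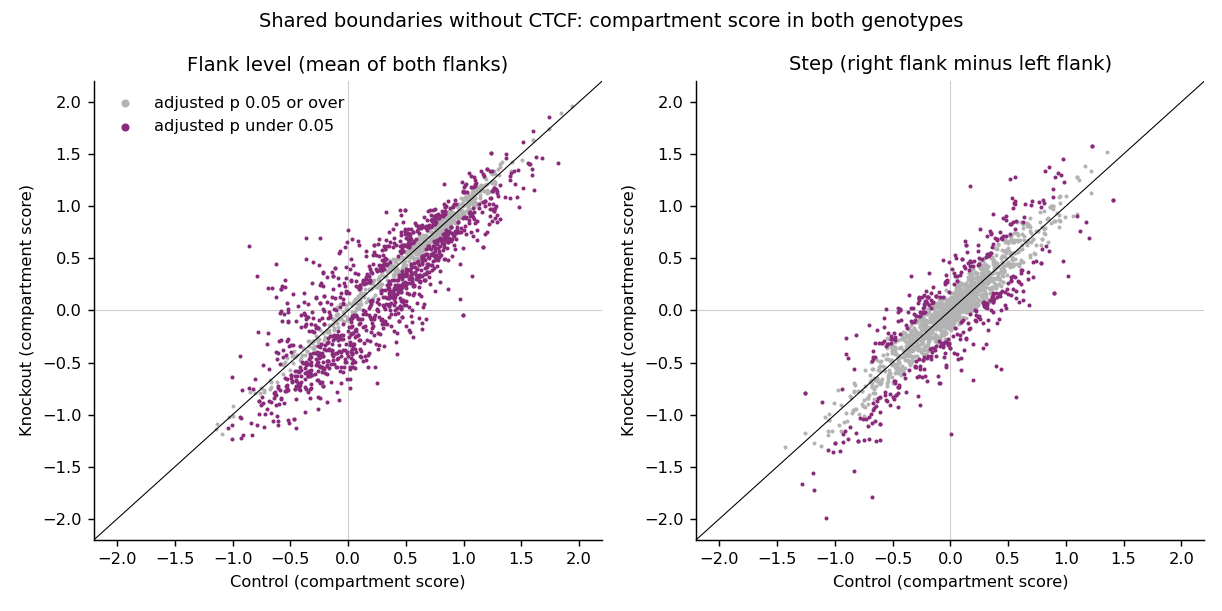
Compartment score at the 1656 scored shared boundaries without CTCF in control (horizontal axis) and knockout (vertical axis), for the mean of both flanks (left) and for right minus left flank (right); purple points have an adjusted p under 0.05 and the diagonal marks no change. More purple points lie below the diagonal than above it on the left (739 against 368), and steps on the right stay close to the diagonal.

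The largest rises were 5 boundaries that were B on both sides in control and A on both sides in the knockout. At chromosome 13, 82480000, 24.1 kb from CTCF, the level was -0.901 and -0.818 in control and 0.637 and 0.603 in the knockout (change 1.48, SE 0.036, adjusted p = 4.1e-07, limma). At chromosome X, 117120000, 242 kb from CTCF, it was -0.342 and -0.386 and then 0.736 and 0.650 (change 1.06, SE 0.0372). The genotypes did not overlap at either position. Chromosome 4, 116940000, chromosome 13, 81600000, and chromosome 6, 55140000, rose by 1.11, 1.06 and 0.945, so 5 of the 5 are on the chromosomes poor in CTCF peaks.

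The largest falls were on chromosomes 5, 1, 3 and 2. The positions 174920000 and 174940000 on chromosome 5, which share flanking bins, were at 0.884 and 1.10 in control and at -0.0379 and -0.0526 in the knockout (change -1.04, SE 0.0616, adjusted p = 4.9e-06). Chromosome 1, 243000000, and chromosome 2, 133940000, went from A to B on both sides, by -0.946 and -0.845. At the latter, H3K9me3 coverage within 50 kb went from 6.86% to 31.7%, H3K27ac from 6.35% to 0.552% and H3K4me3 from 7.96% to 3.99%.

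Steps that appeared or vanished gave new and lost compartment borders at positions that stayed domain boundaries. At chromosome 10, 44140000, 22.7 kb from CTCF, the step was 0.109 and -0.0958 in control and -1.31 and -1.07 in the knockout (change -1.19, SE 0.0921, adjusted p = 4.5e-05, limma). Its left flank went from -0.376 to 0.546 while the right stayed in B, and H3K9me3 coverage within 50 kb went from 90.2% to 0. This was the largest H3K9me3 loss among the scored members. At chromosome 3, 142780000, the step of -1.08 and -1.06 was -1.99 and -2.00 in the knockout, where the right flank went from 0.429 to -0.886.

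The 5 largest losses of a step were all control borders that became A on both sides and had no H3K9me3 within 50 kb in the knockout. Little was listed at other A members either. Mean knockout coverage within 50 kb was 0.724% at the 52 control borders that became A and 0.624% at members that were A in both genotypes. At chromosome 4, 99020000, and at 99060000, which shares its bins, the step of 0.970 and 0.833 was 0.158 and 0.184 in the knockout (change -0.73, SE 0.067, adjusted p = 0.000134). At chromosome X, 117420000, it went from 1.13 and 0.899 to 0.336 and 0.333, and H3K27me3 coverage from 22.5% to 3.13%. The others were chromosome 4, 124640000 (change 0.642) and 160860000 (change -0.625).

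The 5 largest gains of H3K9me3 were all in B on both sides in both genotypes. Coverage within 50 kb went from 0 to 93.8% at chromosome 6, 50040000, which was 449 kb from CTCF and whose level went from -0.833 to -1.19. It went from 0 to 93.4% at chromosome 18, 30740000, whose level did not change beyond the spread between libraries (-1.14 in both, limma adjusted p = 0.856). The others were at chromosome 3, 22180000 (0 to 87.2%), chromosome 3, 420000, and chromosome 13, 53780000 (3.42% to 88.1%).

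Borders in control were then oriented from A to B, and peak coverage was averaged in 100 kb steps on both sides. In control, H3K9me3 differed little across the 332 borders without CTCF, with 8.84%, 8.47% and 8.24% covered on the A side from far to near and 10.4%, 8.46% and 7.47% on the B side from near to far. In the knockout it was 5.31%, 2.65% and 1.96% on the A side and 16.6%, 34.1% and 41.9% on the B side. Coverage in the knockout thus stepped up at the boundary and went on increasing with distance into B.

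Taken over 300 kb per side, H3K9me3 in control was greater on the B side at 167 borders and on the A side at 165, with means of 8.77% and 8.52%. In the knockout it was greater on the B side at 293 and on the A side at 15, with means of 30.8% and 3.31%. Borders with CTCF already leaned to the B side in control, with 59.9% greater there and means of 12.6% and 8.96%, and had means of 29.7% and 2.95% in the knockout. Without the 6 chromosomes poor in CTCF peaks, members leaned to the B side in control too, at 122 of 200 borders (61%, 54.1 to 67.5; means 11.001% and 9.36%), beside 63.9% with CTCF, while their knockout means were 31.6% and 3.85%. Borders of the same orientation in both genotypes (198) had 30.8% and 1.63% in the knockout, so the pattern was as large without borders that changed class. The wider peaks of the knockout list apply to these values too.

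Orientation was fixed on the control scores, and the peak lists were not used for it. The bins more than 50% covered by H3K9me3 in the knockout numbered 34, 114 and 144 of 332 on the B side from near to far, and 13, 4 and 1 on the A side from far to near. In control no step held more than 2 such bins.

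H3K27me3 went the other way on the B side. In control it covered 32.4%, 32.4% and 28.2% of the B side from near to far and 8.84% to 10.97% of the A side. In the knockout the B side had 20.1%, 15.8% and 13.7%. Over 300 kb the B side mean went from 31.0% to 16.5%, and the number of borders with more on the B side from 272 to 205. Borders with CTCF changed likewise, with a B side mean of 36.3% in control and 21.4% in the knockout. The number with more on the B side there went from 707 to 574 of 833. H3K27ac and H3K4me3 were concentrated on the A side in both genotypes, with H3K27ac at 4.47% in the nearest 100 kb of A and 0.884% in that of B in control and at 5.60% and 1.21% in the knockout.

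**Figure D5:**
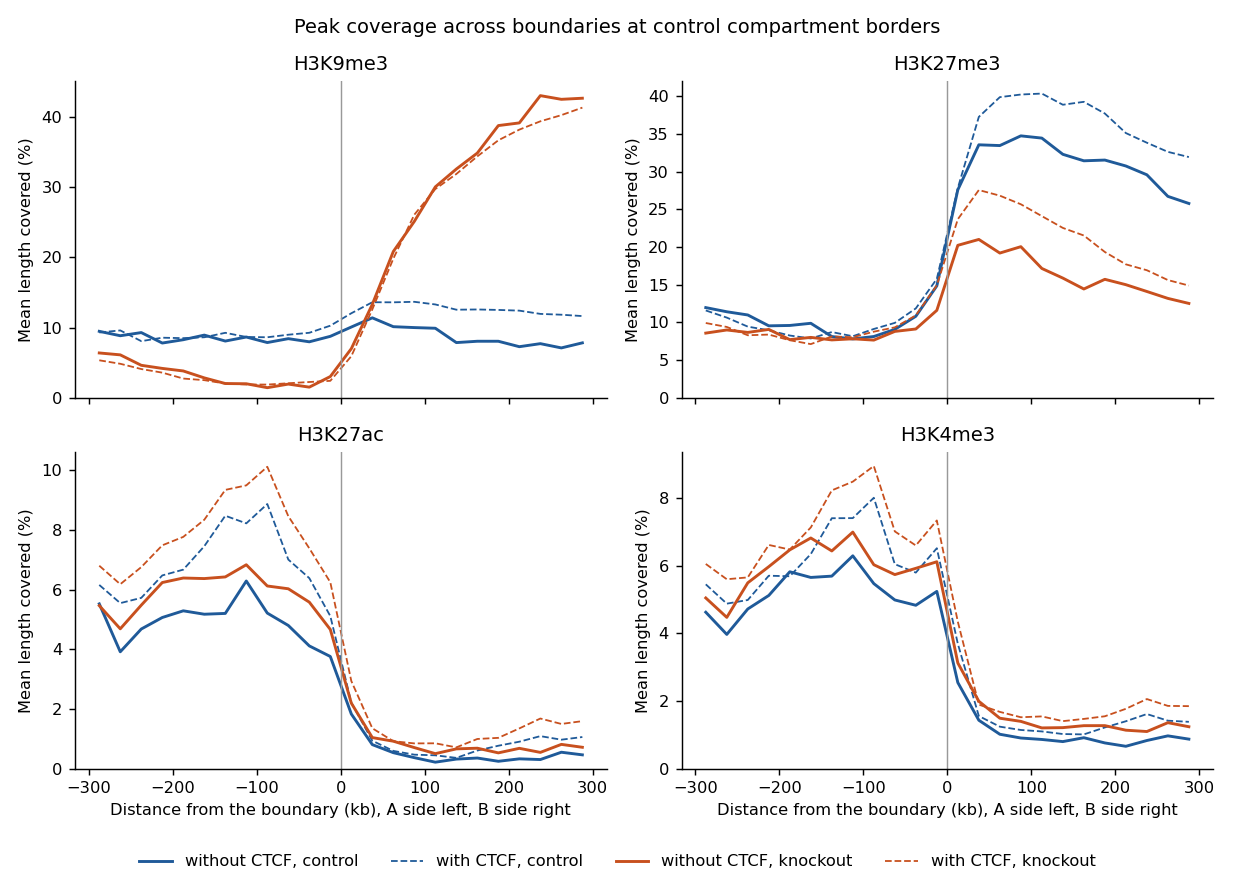
Mean percent of length covered by peaks (vertical axes, each from 0) against distance from boundaries at control compartment borders (kb, A side negative, B side positive), for 4 marks; solid lines are 332 borders without CTCF, dashed lines 833 with CTCF, blue control and orange knockout. Knockout H3K9me3 climbs on the B side to 41.9% at 200 to 300 kb without CTCF, where control lies at 7.47%, and H3K27me3 on the B side is lower in the knockout.

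The later class of a border went along with its H3K9me3. Of the 332 control borders without CTCF, 198 were still borders in the knockout, 52 became A on both sides and 82 became B on both sides. In the knockout, those that became A had 3.70% H3K9me3 on the former B side, against 9.59% in control. Those that became B had 48.1% there and 9.23% on the former A side, against 8.32% and 9.31% in control. Borders with CTCF followed the same pattern in the knockout. Those that became A had 3.92% on the former B side, and those that became B had 39.5% there and 8.69% on the former A side. Among the 300 members in B, 232 stayed B, of which 64.2% had H3K9me3 within 20 kb in the knockout, and 32 became A, of which 21.9% did. No class change differed from boundaries with CTCF beyond counting error.

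Genes for factors known at boundaries were mostly lower in the knockout or not called. From a list of 31 genes for CTCF, cohesin and its regulators, TFIIIC, condensin II, type II topoisomerases and other boundary binders, 4 rose and 19 fell (edgeR, adjusted p under 0.05), beside 62.8% of 17767 genes called, with 32.8% higher and 30.0% lower. The list's median log2 change was -0.19, against 0.0038 over all genes, and no member changed 2-fold. CTCF rose from 87.0 ± 2.27 to 95.7 ± 1.20 CPM (SD, n = 3; log2 0.14, SE 0.045, edgeR adjusted p = 0.0087), and without control replicate 3 it was 0.12 with adjusted p = 0.060.

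The cohesin ring subunit SMC3 fell from 169 ± 7.84 to 96.1 ± 1.43 CPM (log2 -0.81, edgeR adjusted p = 3.7e-15), with no overlap between groups. RAD21, which closes the ring, fell from 291 ± 5.47 CPM by 0.27 on the log2 scale (edgeR adjusted p = 1.6e-06), and SMC1A by 0.19 (edgeR adjusted p = 0.00082). TFIIIC binds tRNA genes, and its subunits GTF3C3 and GTF3C2 fell by 0.82 and 0.70. Both lie on chromosome 2, where the median of 1049 genes was -0.54, and the part of that shift in their change was not tested. MAZ, a zinc finger factor reported at boundaries, rose by 0.48.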

How the data were processed

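The authors deposited raw counts per gene (RNA-seq, 3 libraries per genotype), a signed compartment score per 100 kb bin (Hi-C, 2 replicate columns per genotype), and domain and peak lists that hold positions only (other). Per the submitters' processing notes, tools included STAR 2.6.1c, edgeR 3.30.0, Bowtie2 2.2.3, SAMtools 1.5, Picard and MACS2, on hg19; their settings, the pooling of libraries before peak calling, and the way the score was made and scaled are not given in the sources used here. The antibody label of the knockout H3K4me3 libraries reads HK4me3.

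Boundaries were the different start and end positions of the control domain list. A boundary had a mark where a peak overlapped the 20 kb on either side by 1 bp or more. Shares carry 95% Wilson intervals and differences 95% Newcombe intervals, for counting error only. Boundaries inside the same 100 kb bin have the same flanking scores, and the compartment shares and intervals count them separately. The compartment step was the score of the bin to the right minus that to the left, leaving out the bin that holds the boundary, and was tested with limma 3.58.1 (R 4.3.3) over all 6434 scored control boundaries with Benjamini-Hochberg adjustment at 0.05. Genes were tested with edgeR 4.0.16 (TMM, filterByExpr, quasi-likelihood). DESeq2 1.42.0 was an alternative. Python 3.11.15 was used elsewhere. Both fits were tested on simulated data. With 200 boundaries shifted by 20 times the median SD, limma recovered 96.5% for the step, and with 200 shifted by 5 times it recovered 0%, so a small change at few boundaries would be missed. With 3217 shifted by 5 times it recovered 81.4% for the step and 80.1% for the level.

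Deviations of libraries with the same replicate number did not move together (correlation -0.0029 for the step and 0.0038 for the level in Hi-C, and 0.111, 0.0641 and 0.0467 for the 3 RNA-seq pairs, not all above 0.1), so no block was used. All columns of per-library values were mapped. Boundaries were named by 8 fixed rules, 5 each (largest control step, step grown or shrunk, level risen or fallen, H3K9me3 gained or lost, most active marks), and not all are printed. The members, the rules and the gene list were chosen with earlier results of these data known. The A-to-B oriented profile, the differences in called shares and the alternative without the 6 chromosomes poor in CTCF peaks were added after seeing the data.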

Additional observations from a re-analysis of the deposited data

How the results depend on the processing

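Across 1018 recalculated values, 897 kept direction and, where tested, side of the threshold, or for untested values stayed near the reported value. Among the untested, the interval of the knockout minus control share came to include 0 for H3K27me3 (-3.35, -7.15 to 0.47) and H3K27ac (3.82, -0.015 to 7.65) without the 6 chromosomes poor in CTCF peaks, and for these marks under some other settings. Such intervals ignore that the same boundaries were scored in both genotypes, so they cannot tell whether these differences were lost. Of those 1255 members, 97 had an H3K27me3 peak in control alone and 55 in the knockout alone. For H3K27ac the counts were 41 and 89. The number of members was 3423 with a CTCF distance of 10 kb, 869 with 40 kb, 3296 with control CTCF peaks alone, 1176 for positions where domains adjoin, and 1255 without those chromosomes. The H3K4me3 and H3K27ac differences from boundaries with CTCF kept their sign and an interval without 0 in all of these. The H3K9me3 difference did not. In control it was -2.83 (40 kb), -0.248 (control CTCF alone), -2.76 (adjoining) and -2.38 (wider 50% of peaks), with intervals that include 0, and 0.225 with a 10 kb window, the opposite sign. In the knockout it was 1.55 (same position), 0.707 (10 kb), 2.38 (40 kb), 0.177 (control CTCF alone), 1.56 (autosomes) and 0.0547 (without the 6 chromosomes), and -0.153 with a 50 kb window, the opposite sign. The drop of H3K9me3 at members, -39.2 points, was -43.3 with control CTCF alone, -28.5 with a 10 kb window, -53.6 with 50 kb and -26.0 for wider peaks. The control H3K27me3 difference was -2.39 (same position), -2.47 (adjoining), -1.15 (10 kb window) and -2.45 (middle of the peak), with intervals that include 0. The border difference excluded 0 with a CTCF distance of 10 kb (3.40 control, 3.22 knockout), with control CTCF alone (3.76, control) and for adjoining positions (2.55 and 2.65). The cause was not tested in any of these cases.

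For the step, 2 bins per side called 47.8% of members (28.8% grown, 18.9% shrunk). Leaving out 1 library gave 14.3% to 24.5% called (8.33% to 14.6% grown, 5.56% to 10.6% shrunk), lowest without knockout replicate 1 (14.3%) or 2 (16.0%), where the lone library is assumed to vary like the others. The difference from boundaries with CTCF in steps called, 3.87 points, was 1.86 to 3.65 over the libraries left out and lost its call without knockout replicate 1 (1.86) and with a CTCF distance of 40 kb (2.99); that in grown steps gained one at 10 kb (1.83). For the level, a CTCF distance of 10 kb gave 1.26 points in rises, with an interval that includes 0, and 3.63 in falls, with one that does not, and 2.97 points were found in either direction without the 6 chromosomes. With the replicate block, 24.8% of members had a step called and 66.5% a level, and it changed no call named in the report; 23 boundary factor genes were called with it and 20 to 24 over all RNA alternatives. Opposite signs were found for STAG1 (0.011 with library size alone, 0.019 without a filter), GTF3C6 (-0.011 without control replicate 3, -0.00053 without knockout replicate 3; 0.12 at most) and NCAPH2 (-0.11 to 0.0059). Peak and domain lists have no replicate error, and the depth of Hi-C and ChIP-seq is unknown here.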
